A study of Mus musculus with 16 samples.

Results

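The genes described here are the cytosolic ribosomal protein genes of mouse embryonic stem (ES) cells. A gene was included by its name alone: a probe set annotated to exactly 1 symbol of the form Rpl or Rps plus a number, or to Rplp0, Rplp1, Rplp2 or Rpsa. Ribosomal S6 kinases and pseudogenes were left out. The rule gave 48 genes of the 12393 measured, on 100 probe sets, and the probe set with the highest mean signal stood for each gene. Of the 48, 42 belong to a list of 79 genes of the mature cytosolic ribosome, 22 of the large and 20 of the small subunit. Another 27 of the 79 are listed only on probe sets that carry several symbols, and 10 were not analysed here. A further 5 are paralogs of ribosomal protein genes (Rpl22l1, Rpl39l, Rpl3l, Rps27l and Rps4l). Rpl7l1 matched by name but is not counted among the proteins of the mature ribosome.

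RNA was measured on 16 Affymetrix Mouse 430A 2.0 arrays of J1 ES cells, all grown on gelatin in serum with leukemia inhibitory factor. Cells with a knockdown of Tgif1 (Tgif1 KD, 2 arrays) were compared with a knockdown control labelled shControl (2 arrays). Cells labelled as overexpressing Tgif1 (Tgif1 OE, 4 arrays) or Tgif2 (Tgif2 OE, 4 arrays) were compared with cells overexpressing BirA, a bacterial biotin ligase (BirA control, 4 arrays). Tgif1 and Tgif2 are homeodomain proteins that repress transcription. The labels used here give no clone, time after perturbation or promoter of the constructs, and do not say whether arrays of a group came from separate cultures. The p-values therefore measure the spread between these arrays, which may be technical. The fit pooled that spread over all 16 arrays. A knockdown p-value thus also draws on the spread of the overexpression and BirA control arrays.

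Ribosomal proteins assemble with ribosomal RNA into the small subunit, which decodes mRNA, and the large subunit, which forms the peptide bond. Most of their mRNAs start with a short pyrimidine stretch, the 5′ terminal oligopyrimidine (TOP) motif, through which mTOR signalling controls their translation. Their transcripts are among the most abundant in growing cells, and a few genes have paralogs with narrower expression, such as Rpl39l in male germ cells and Rpl3l in striated muscle.

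The signal of Tgif1 was 7.46 and 7.12 in the Tgif1 KD arrays, against 10.71 and 10.66 in shControl, on the log2 scale that all values here use. It was 10.02 to 10.25 in the 4 arrays labelled Tgif1 OE, against 10.65 to 10.74 in BirA control, so the arrays labelled Tgif1 OE lay below their control. Whether that probe set lies in the sequence an overexpression construct would carry is not given in the sources used here. Tgif2 was 9.29 to 9.47 in the arrays labelled Tgif2 OE and 9.17 to 9.35 in BirA control, so the ranges overlapped, and Tgif1 was 10.21 to 10.31 in Tgif2 OE. The signal of the target gene thus bears out neither overexpression label, and every direction given for these arrays rests on the labels. The mean of 15 ES cell markers was 11.42 to 12.17 over all arrays, and that of the 7 measured blood cell markers was 4.34 to 4.61. In each overexpression group and BirA control, arrays 1 and 2 stood apart from arrays 3 and 4, so values within each pair are given beside each gene called in the Tgif1 OE comparison.

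Most ribosomal protein genes gave a signal near the top of the array in every group. Of the 42 genes of the mature ribosome, 33 had a mean over the 16 arrays of at least 13, a level chosen after seeing the values, and lay between 13.76 and 14.51. The dimmest of these 33 exceeded 99.52% to 99.60% of all genes measured on each array. Their SD within groups was 0.01 to 0.06 with a median of 0.02, against a median of 0.13 over all genes. The remaining 9 (Rpl12, Rpl14, Rpl22, Rpl27a, Rpl37, Rpl39, Rps25, Rps27 and Rps6) were measured by dimmer probe sets, with means of 5.67 (Rpl39) to 12.99 (Rpl22). For 8 of these 9, all but Rpl22, the array also holds probe sets that list the gene together with other symbols. The 33 lay close to the highest signal of any probe set on the arrays, 14.62 to 14.79. Whether signals this high are compressed was not tested, so a small change there does not show that the RNA was unchanged. Signals of different probe sets were not ranked against each other, since each probe set has its own response. In 11 of the 48 genes the probe set in use has a suffix (x or s) that marks possible hybridisation to other sequences, and in 20 a suffix (a) for several transcripts of 1 gene.

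RefSeq promoter windows on build GRCm38.p6, from 250 bases before to 50 after an annotated start, were matched to 42 of the 48 genes. A gene counted when any of its windows held a match, while the shares of all windows are per window. A run of at least 6 pyrimidines within 5 bases of the start was present in 23 of the 42 genes (54.8%), against 21.0% of all 32851 windows and 24.9% of 9845 other measured genes. The windows around the start, with 20 bases on each side, are shown for 5 of the genes called in at least 1 comparison (Rpl39l with its parent Rpl39, and Rps25, Rps27 and Rpl14) and for Rps6, the ribosomal phosphoprotein downstream of mTOR. Capitals mark the pyrimidine run where one met the rule, and the start is base 21 of each line.
Rpl39l, chr16:10170208-10170247, plus strand: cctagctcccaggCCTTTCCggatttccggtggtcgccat
Rps25, chr9:44407694-44407733, plus strand: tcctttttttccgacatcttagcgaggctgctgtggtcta
Rps27, chr3:90213629-90213668, minus strand: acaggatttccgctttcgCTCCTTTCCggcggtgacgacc
Rpl14, chr9:120571497-120571536, plus strand: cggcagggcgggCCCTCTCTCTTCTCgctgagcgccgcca
Rpl39, chrX:37085203-37085242, minus strand: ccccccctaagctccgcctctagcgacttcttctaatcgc
Rps6, chr4:86857348-86857387, minus strand: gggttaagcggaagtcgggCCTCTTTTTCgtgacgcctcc
Rps27, Rpl14 and Rps6 hold such a run across the annotated start, and the run of Rpl39l ends at the base before it. In Rps25 and Rpl39 no run of this length lies within 5 bases of the annotated start, and runs are found elsewhere in the printed window.

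The ETS core CCGGAAG, searched on both strands of the same windows, was found in 21 of the 42 genes (50%), against 8.86% of all windows and 16.2% of other measured genes. AAGATGG, the core of the YY1 site, was found in 7 of 42 (16.7%), against 6.34% of all windows and 7.82% of other measured genes. CACGTG, the E-box bound by Myc and Max, was found in 4 of 42 (9.52%), against 7.15% of all windows and 10.8% of other measured genes, so its share lay between both backgrounds. TGTCA, the core of the site bound by Tgif proteins, was found in 15 of 42 (35.7%), against 45.4% of all windows and 42.9% of other measured genes. Per window, over the 50 windows of these 42 genes, the shares were 42%, 14%, 10% and 32% in this order. The pyrimidine run was held by 46% of them. The upstream windows of Rpl39l and Rps25, the genes with the largest differences below, run from 200 bases before to 20 after the start, and capitals mark CCGGAAG.
Rpl39l, chr16:10170028-10170247, plus strand: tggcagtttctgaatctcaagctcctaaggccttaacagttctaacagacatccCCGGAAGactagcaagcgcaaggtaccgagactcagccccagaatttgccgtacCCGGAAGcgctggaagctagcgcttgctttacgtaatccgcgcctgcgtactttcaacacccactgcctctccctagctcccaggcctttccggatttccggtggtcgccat
Rps25, chr9:44407514-44407733, plus strand: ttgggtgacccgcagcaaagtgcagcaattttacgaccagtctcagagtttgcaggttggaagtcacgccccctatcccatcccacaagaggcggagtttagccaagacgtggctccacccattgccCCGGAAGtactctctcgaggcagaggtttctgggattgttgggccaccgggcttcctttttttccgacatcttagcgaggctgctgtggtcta
These matches describe the letters in the windows and carry no information on binding in these cells.

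In the Tgif1 knockdown, the signals of Rps25 and Rps27 fell, that of Rpl39l rose, and those of the other 45 ribosomal protein genes did not pass the test. Of the 48 genes, 1 was higher and 2 were lower past an adjusted p of 0.05 in limma's moderated test with Benjamini-Hochberg adjustment over all genes. The background in this comparison was 25.4% of the 12393 genes (12.5% higher, 12.9% lower), and the 3 called were 6.25% of the 48. The median change of the 48 was 0.00 on the log2 scale, against -0.05 over all genes, and 39 of the 48 lay within 0.1 of no change. Of the 33 bright genes of the mature ribosome none was called by limma and none had an unadjusted p under 0.05. Their changes ran from -0.06 for Rps18 to 0.13 for Rpl41, with standard errors of 0.06 to 0.08. Among 22 other genes with means in or above the range of these 33, 13.6% were called. Rpl41, the smallest protein of the large subunit, gave 14.54 and 14.49 in Tgif1 KD, against 14.37 and 14.40 in shControl. It passed with a variance trend on signal fitted together with a robust variance (limma, adjusted p = 0.0206, against 0.164 without them).

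Rps25, a small-subunit protein required for initiation on several viral internal ribosome entry sites, gave 9.01 and 9.06 in the Tgif1 KD arrays, against 10.39 and 10.29 in shControl. The groups were separated by more than 1 log2 unit, with both knockdown arrays low. The change was -1.31 ± 0.15 (SE), a level of 0.404 times that of shControl (limma, adjusted p = 1.6e-05). The adjusted p stayed between 0.0003 and 0.0005 when any 1 of the 4 arrays was left out. A brighter probe set that lists Rps25 together with other symbols gave 13.26 and 13.37 in Tgif1 KD, against 13.71 and 13.70 in shControl, a change of -0.39 ± 0.06 (SE; adjusted p = 0.0005 in the limma fit over all probe sets). Both probe sets were lower in both knockdown arrays, and the size differed between them. Of the 75 probe sets with a mean of at least 13 that list a ribosomal protein gene among several symbols, this was the 1 called in the knockdown, against 22.3% of all 22626 probe sets. In RNA from bulk cultures, fewer cells with the transcript and less of it per cell cannot be told apart.

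Rps27, a zinc-finger protein of the small subunit, gave 7.06 and 6.97 in Tgif1 KD, against 7.36 and 7.34 in shControl. Both knockdown arrays were lower, and the change was -0.34 ± 0.08 (SE; limma, adjusted p = 0.0069). Leaving out Tgif1 KD replicate 2 ended the call (adjusted p = 0.0702). The bright probe set that lists Rps27 with other symbols did not follow it, with a change of 0.04 ± 0.07 (SE). Rps27l, the paralog of Rps27 and a target of p53, gave 13.46 and 13.49 in Tgif1 KD and 13.51 and 13.50 in shControl, and its change of -0.03 did not pass.

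Rpl14, a large-subunit protein, showed 9.46 and 9.37 in Tgif1 KD, against 9.72 and 9.73 in shControl. Its change of -0.31 ± 0.11 (SE) did not pass in the main fit (limma, adjusted p = 0.063). It passed when arrays were centred on their median, without the dimmest genes, or with the variance trend. It also passed with only both groups fitted or with the replicate number as a block. The 5 other probe sets that list Rpl14 with further symbols changed by -0.01 to 0.19. The second probe set of Rpl22, at 10.29 and 10.25 in Tgif1 KD against 9.80 and 9.85 in shControl, rose by 0.45 ± 0.11 (SE; adjusted p = 0.0069 over all probe sets). The brighter probe set that stands for Rpl22 changed by 0.01, so the probe sets of this gene did not move together.

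**Figure D1:**
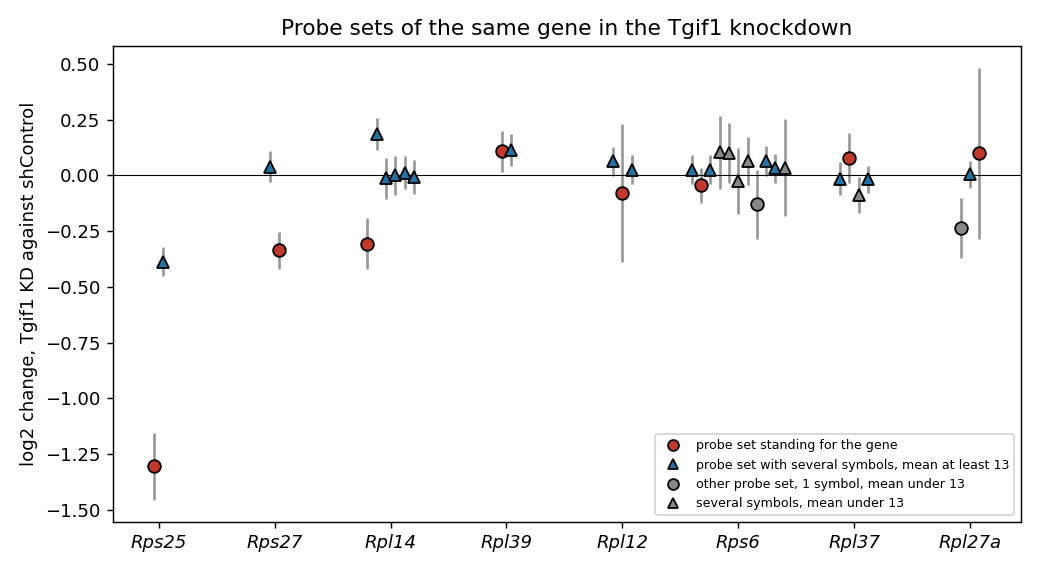
Log2 change (y axis) in Tgif1 KD against shControl of each probe set that lists one of 8 dim genes of the mature ribosome (x axis), with bars of 1 standard error; circles are probe sets with 1 symbol, triangles those with several, and colours mark the probe set in use and those with a mean of at least 13. Both Rps25 probe sets lie below 0, while the probe sets with several symbols lie at 0.04 for Rps27 and between -0.01 and 0.19 for Rpl14.

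Rpl39l, the paralog of the small exit-tunnel protein Rpl39, gave 11.73 and 11.66 in Tgif1 KD, against 10.96 and 10.99 in shControl. The groups did not overlap, and the knockdown arrays were higher by 0.72 ± 0.20 (SE), or 1.65-fold (limma, adjusted p = 0.0159). The SD was 0.05 in Tgif1 KD and 0.02 in shControl. It was 0.16 in Tgif1 OE, 0.25 in Tgif2 OE and 0.30 in BirA control, and the standard error pools all of these. The adjusted p rose to between 0.0595 and 0.0865 when any 1 of the 4 arrays was left out. Rpl39 itself gave 5.71 and 5.74 in Tgif1 KD and 5.49 and 5.75 in shControl, with a change of 0.11 ± 0.09 (SE) that did not pass. Its brighter probe set with several symbols also changed by 0.11.

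The other paralogs did not pass in the knockdown. Rpl22l1, which is repressed by its parent Rpl22, gave 13.27 and 13.33 in Tgif1 KD and 13.20 and 13.07 in shControl, a change of 0.16 ± 0.08 (SE; adjusted p = 0.154). Rps4l, related to the X-linked Rps4x, gave 13.11 and 13.11 in Tgif1 KD and 13.10 and 13.11 in shControl. Rpl3l was dim, at 5.31 and 5.02 in Tgif1 KD against 5.02 and 4.88 in shControl, with a change of 0.21 ± 0.19 (SE). Rpl7l1, a relative of Rpl7, changed by -0.14 (adjusted p = 0.205).

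A further 7 subunits listed by name for their known roles were within 0.1 of no change in the knockdown. Rplp0, the base of the stalk that recruits translation factors, gave 14.01 and 14.06 in Tgif1 KD and 14.11 and 14.07 in shControl, a change of -0.05, and Rplp2, a stalk protein, changed by -0.02. Rpsa, which is also a laminin receptor, changed by -0.04. Rps19, mutated in Diamond-Blackfan anaemia in humans, changed by 0.07, and Rpl11, which binds Mdm2 when ribosome assembly fails, by 0.01. Rpl38, required for translation of a set of Hox mRNAs in mouse embryos, changed by -0.04, and Rps6 by -0.05. None of these 7 passed by limma, and none had an unadjusted p under 0.05.

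**Figure D2:**
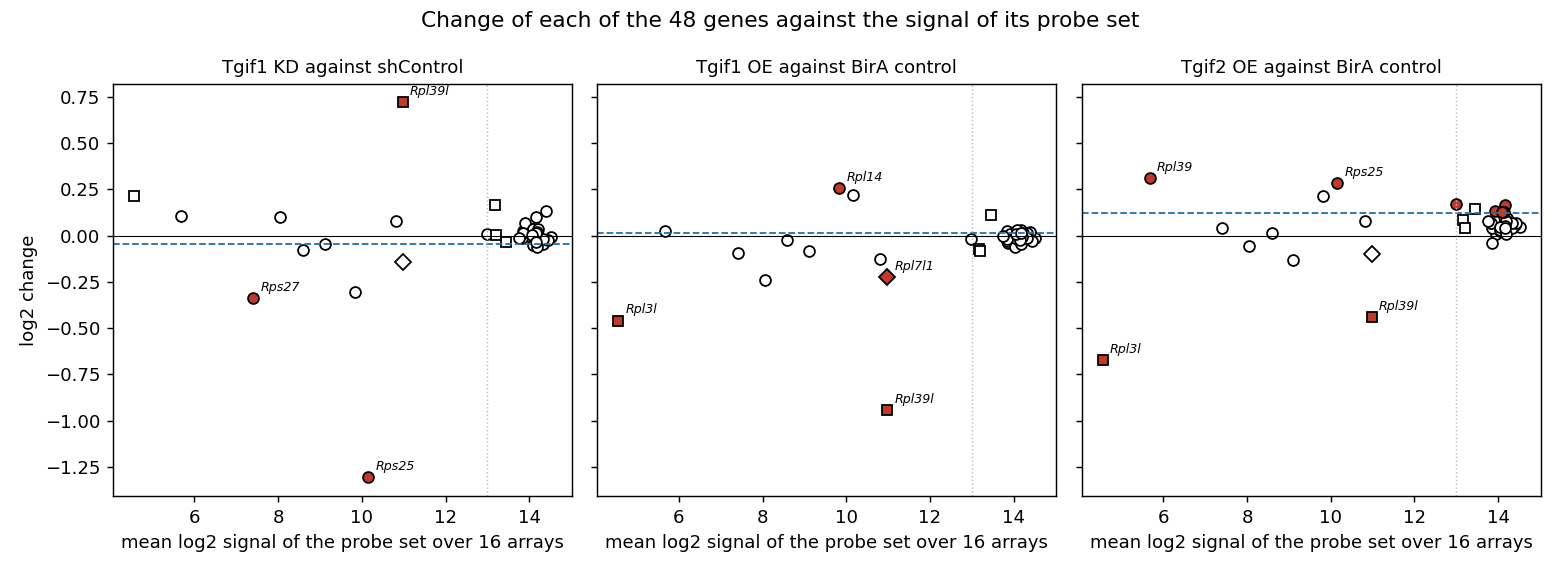
Log2 change (y axis) of each of the 48 genes against the mean log2 signal of its probe set over 16 arrays (x axis), in 3 comparisons; circles are genes of the mature ribosome, squares paralogs and the diamond Rpl7l1, filled symbols passed an adjusted p of 0.05, the dashed line is the median of all genes and the dotted line marks a signal of 13. Genes right of the dotted line lie between -0.08 and 0.16, and the changes past that range belong to dimmer probe sets.

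Among genes that build or serve the ribosome, the knockdown calls included more falls than rises for biogenesis genes and mitochondrial ribosomal proteins. The share called was 35.3% of the biogenesis genes and 32.0% of the mitochondrial ribosomal proteins, against 25.4% of all genes. It was 26.9% of the initiation factors, 5.88% of the elongation and TOP genes and 12.5% of the quality control genes. Of 68 measured genes for ribosome biogenesis, 2 rose and 22 fell, with a median change of -0.22, against -0.05 over all genes. The largest falls among the called genes were Noc3l (-0.97) and Ebna1bp2 (-0.67), whose yeast counterparts act in large-subunit assembly, and Fbl (-0.54), the methyltransferase of ribosomal RNA, while Imp3 rose by 0.53. Of 75 mitochondrial ribosomal proteins, 5 rose (Mrps14 by 0.53) and 19 fell (Mrps11 by 0.65). Of 26 initiation factors, 2 rose (Eif4a2 by 0.72) and 5 fell, with Eif6, which keeps the subunits apart, at -0.67 and Eif3b at -0.55. Of 17 elongation factors and other TOP mRNA genes, 1 fell (Eif3k by 0.22). Of 8 genes for ribosome quality control, Hbs1l rose by 0.28.

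Of 20 regulators of ribosomal protein synthesis, 5 rose and 1 fell in the knockdown (30.0%, against 25.4% of all genes). Myc, which drives transcription of ribosomal genes, fell by 1.07 ± 0.11 (SE; adjusted p = 4.42e-06), and its relative Mycn rose by 0.53 ± 0.07 (SE; adjusted p = 0.0001). Ddit4 and Tsc1, both inhibitors of mTOR complex 1, rose by 1.29 and 0.52. The 5′ minus 3′ signal of Gapdh was -0.10 and -0.08 in Tgif1 KD, against -0.21 and -0.22 in shControl, and that of Actb was -0.52 and -0.49 in Tgif1 KD, against -0.61 and -0.67 in shControl. Each knockdown array lay above each control array in both, so this measure of RNA quality cannot be told apart from the knockdown. Of 17 fibroblast markers, 2 rose and 1 fell, with list means of 5.50 to 5.54 in Tgif1 KD and 5.57 to 5.60 in shControl. Of 15 ES cell markers 2 rose, with list means of 12.16 to 12.17 in Tgif1 KD and 11.96 to 11.97 in shControl. The part of these markers in the results was not tested.

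In the arrays labelled Tgif1 OE, the signals of the paralogs Rpl39l and Rpl3l and of Rpl7l1 were lower, that of Rpl14 was higher, and 44 of the 48 genes did not pass. Of the 48 genes, 1 rose and 3 fell (8.33%), against a background of 20.9% of all genes (11.4% higher, 9.51% lower). Over all genes this was 1408 higher and 1179 lower, or 1137 higher and 1486 lower when each array was centred on its median. The median change of the 48 was -0.01, against 0.01 over all genes. Of the 33 bright genes none was called by limma and none had an unadjusted p under 0.05, with changes from -0.06 for Rpl8 to 0.03 for Rpl7. With the trended and robust variance Rpl8 passed (limma, adjusted p = 0.0487). Among the 22 other genes of such signal 4.55% were called. The limit given above for signals near the top of the array holds here too.

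Rpl39l gave 10.49, 10.55, 10.26 and 10.22 in the arrays labelled Tgif1 OE, against 11.55, 11.61, 11.08 and 11.04 in BirA control. Every Tgif1 OE array lay below every BirA control array, although arrays 1 and 2 were higher than arrays 3 and 4 in both groups. The change was -0.94 ± 0.14 (SE), a level of 0.52 times that of BirA control (limma, adjusted p = 0.0002). It was -1.06 in arrays 1 and 2 and -0.82 in arrays 3 and 4 fitted alone. The adjusted p stayed between 0.0003 and 0.0013 with any 1 array left out, and Rpl39l was the 1 gene of the 48 still called when the pair of arrays was a random block (0.0010). Rpl39 changed by 0.03 in the same comparison and did not pass.

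Rpl3l, Rpl7l1 and Rpl14 were the other genes called in this comparison. Rpl3l, whose probe set was the dimmest of the 48, gave 4.18, 4.41, 4.23 and 4.39 in Tgif1 OE, against 4.76, 5.03, 4.37 and 4.88 in BirA control, with an overlap at the lowest control array. Its change was -0.46 ± 0.13 (SE; limma, adjusted p = 0.0221). It was -0.60 in arrays 1 and 2 and -0.32 in arrays 3 and 4, where it did not pass, and the call was lost without Tgif1 OE replicate 1 or 3 or BirA control replicate 2 or 4 (adjusted p up to 0.074). Rpl7l1 fell by 0.22 ± 0.06 (SE; adjusted p = 0.0097), and its second probe set changed by -0.26. Rpl7l1 changed by -0.28 in arrays 1 and 2 and by -0.16 in arrays 3 and 4, where it did not pass (adjusted p = 0.0714). Rpl14 gave 9.98, 9.99, 10.03 and 10.05 in Tgif1 OE, against 9.65, 9.58, 9.88 and 9.91 in BirA control. It rose by 0.26 ± 0.08 (SE; adjusted p = 0.0354), by 0.37 in arrays 1 and 2 and 0.14 in arrays 3 and 4, and did not pass after dropping any 1 Tgif1 OE array, or BirA control replicate 1 or 2 (adjusted p up to 0.112). The 5 other probe sets that list Rpl14 changed by -0.03 to 0.02.

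Rps25, the gene that fell in the knockdown, gave 10.11, 10.25, 10.53 and 10.55 in Tgif1 OE, against 10.04, 9.95, 10.30 and 10.28 in BirA control. The groups overlapped, and its change of 0.22 ± 0.11 (SE) did not pass (adjusted p = 0.177), while it passed with the replicate number as a block (0.0165). Its brighter probe set with several symbols changed by -0.02. Rpl27a gave 7.61, 7.65, 8.59 and 8.62 in Tgif1 OE, against 8.05, 7.93, 8.74 and 8.71 in BirA control. Each Tgif1 OE array was below the control array of the same number, and its change of -0.24 passed with the replicate block (adjusted p = 0.0241) and not without it (0.617). Rpl12, a large-subunit protein, gave 8.70, 8.61, 8.49 and 8.47 in Tgif1 OE, against 9.04, 8.94, 8.23 and 8.17 in BirA control. It was not called over all arrays, and its change turned sign between the pairs, at -0.33 in arrays 1 and 2 (adjusted p = 0.0492) and 0.28 in arrays 3 and 4 (0.0903).

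**Figure D3:**
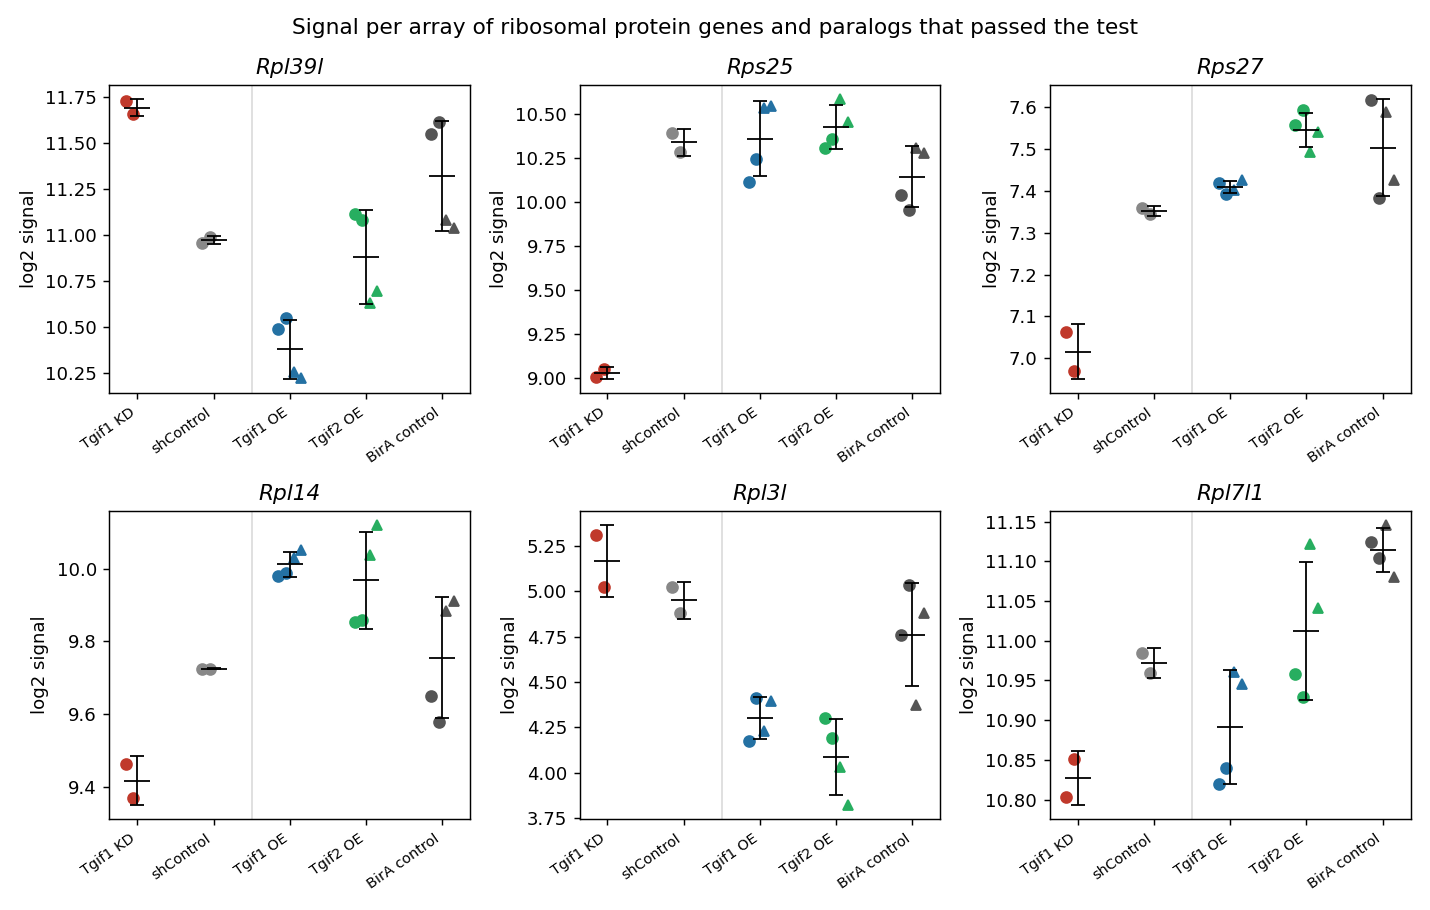
Log2 signal (y axis) of 6 genes in each array of the 5 groups (x axis); points are arrays, with circles for replicates 1 and 2 and triangles for replicates 3 and 4, and bars give the group mean and SD. Rpl39l is higher in Tgif1 KD than in shControl and lower in Tgif1 OE than in BirA control in every array, and Rps25 is low in both Tgif1 KD arrays.

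In the arrays labelled Tgif1 OE, fewer genes of most related lists passed than in the knockdown. The share of all genes called was also smaller, at 20.9% against 25.4% in the knockdown. These differences between comparisons were not tested. The share called was 19.1% of the biogenesis genes, 18.7% of the mitochondrial ribosomal proteins and 19.2% of the initiation factors, near the 20.9% of all genes. It lay above 20.9% for the regulators (30.0%) and the quality control genes (2 of 8). Of 68 biogenesis genes, 2 rose and 11 fell (Noc2l by 0.34), with a median of -0.04. Of 75 mitochondrial ribosomal proteins, 4 rose and 10 fell, and of 26 initiation factors, 1 rose and 4 fell (Eif2b1 by 0.30). None of the 17 elongation and TOP genes was called by limma, with 2 at an unadjusted p under 0.05. Of 20 regulators, Mycn rose by 0.36 and 5 fell, led by Cdkn2a (-1.05), whose Arf product restrains ribosome biogenesis, the mTOR inhibitor Deptor (-0.77) and Max (-0.46). Of 8 quality control genes, 2 fell, with Ltn1, the ubiquitin ligase of stalled ribosomes, at -0.37. The 5′ minus 3′ signal of Gapdh was -0.24 and -0.34 in Tgif1 OE arrays 1 and 2, against -0.11 and -0.13 in BirA control. In arrays 3 and 4 it was -0.02 and -0.08, against -0.05 and -0.04 in BirA control. For Actb, arrays 1 and 2 gave -0.58 and -0.67 in Tgif1 OE, against -0.54 and -0.57 in BirA control. Arrays 3 and 4 gave -0.45 and -0.48, against -0.47 and -0.46. The part of this measure in the calls was not tested. In the same comparison 7 of 17 fibroblast markers rose and 1 fell, led by Tagln at 3.48, with list means of 5.63 to 5.97 in Tgif1 OE and 5.17 to 5.40 in BirA control. Of 15 ES cell markers 8 fell, with list means of 11.42 to 11.68 in Tgif1 OE and 11.83 to 11.92 in BirA control. The part of these markers in the results was not tested.

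In Tgif2 OE, 7 ribosomal protein genes were called higher and the paralogs Rpl39l and Rpl3l lower in the deposited values, which as a whole lay above BirA control. The median change of the 48 genes was 0.06, below the 0.12 over all genes, and it was -0.02 after quantile normalization and -0.07 when each array was centred. Of the 48, 7 were higher and 2 lower (18.75%), against a background of 35.4% of all genes (28.7% higher, 6.69% lower). With a variance trend 19 of the 48 were called, so this share depends on the variance setting. The 35.4% over all genes comes from the fit without that trend. After quantile normalization 1613 genes of the whole array were higher and 1753 lower. The 7 higher genes were Rpl10a, Rpl22, Rpl39, Rpl7, Rps24, Rps25 and Rps26. Their changes of 0.13 to 0.31 became 0.01 to 0.19 relative to the median of all genes. None of the 7 passed after quantile normalization, and Rps24 and Rps26 turned to -0.0020 and -0.0053 when each array was centred. After quantile normalization 5 of the 48 were called, with none higher: Rpl27 (-0.15), Rpl39l (-0.57), Rpl3l (-0.82), Rpl7l1 (-0.23) and Rps6 (-0.24).

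Rpl39l and Rpl3l were lower in Tgif2 OE under both scalings. Rpl39l gave 11.12, 11.08, 10.63 and 10.69 in Tgif2 OE, against 11.55, 11.61, 11.08 and 11.04 in BirA control. The groups overlapped across the array pairs, and within each pair every Tgif2 OE array was lower, by 0.48 in arrays 1 and 2 and 0.40 in arrays 3 and 4 on average. The change was -0.44 ± 0.14 (SE; limma, adjusted p = 0.0261), which no longer passed (adjusted p up to 0.086) after dropping Tgif2 OE replicate 3 or 4, or BirA control replicate 1 or 2. Rpl3l gave 4.30, 4.19, 4.03 and 3.83 in Tgif2 OE, with no overlap with the 4.37 to 5.03 of BirA control, and fell by 0.67 ± 0.13 (SE; adjusted p = 0.0012).

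Rpl39, the parent of Rpl39l, gave 5.84, 5.84, 6.01 and 5.81 in Tgif2 OE, against 5.60, 5.54, 5.60 and 5.53 in BirA control. It was higher by 0.31 ± 0.06 (SE; adjusted p = 0.0019) in the deposited values, or 0.19 relative to all genes, and did not pass after quantile normalization (0.0915). Rpl22 was 13.10 to 13.16 in Tgif2 OE and 12.94 to 12.97 in BirA control, with no overlap. Rpl7 was 14.27 to 14.31 in Tgif2 OE and 14.10 to 14.14 in BirA control, and Rpl10a was 13.98 to 14.02 in Tgif2 OE and 13.87 to 13.90 in BirA control, again with no overlap. Rps24 was 14.21 to 14.25 in Tgif2 OE and 14.06 to 14.15 in BirA control, and Rps26 was 14.13 to 14.19 in Tgif2 OE and 14.02 to 14.07 in BirA control. The changes of these 5 genes, 0.13 to 0.17, stand beside the shift of 0.12 over all genes. With the replicate block Rpl14 (adjusted p = 0.0104) and Rps27l (0.0194) were also called higher and Rps6 (0.0459) lower. In deposited values that carry the same shift, 35.4% of all genes were called. There, 5 of 17 elongation and TOP genes were higher (29.4%, with Nap1l1 by 0.22). Of 68 biogenesis genes, 17 were higher and 2 lower (27.9%). Of 75 mitochondrial ribosomal proteins, 24 were higher and 6 lower (40.0%). Of 26 initiation factors 6 were higher and 1 lower (26.9%). Of 8 quality control genes 2 were higher and 1, Ltn1 (-0.52), lower (37.5%). Of 20 regulators, 3 were higher, among them Mycn (0.44) and the TOP mRNA binding protein Larp1 (0.26), and 4 lower, among them Deptor (-0.67), Cdkn2a (-0.64) and Mtor (-0.32). Fibroblast markers were higher in 7 of 17, with list means of 5.59 to 5.92 in Tgif2 OE and 5.17 to 5.40 in BirA control, and 3 of 15 ES cell markers were higher and 2 lower. The part of these markers was not tested.

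**Figure D4:**
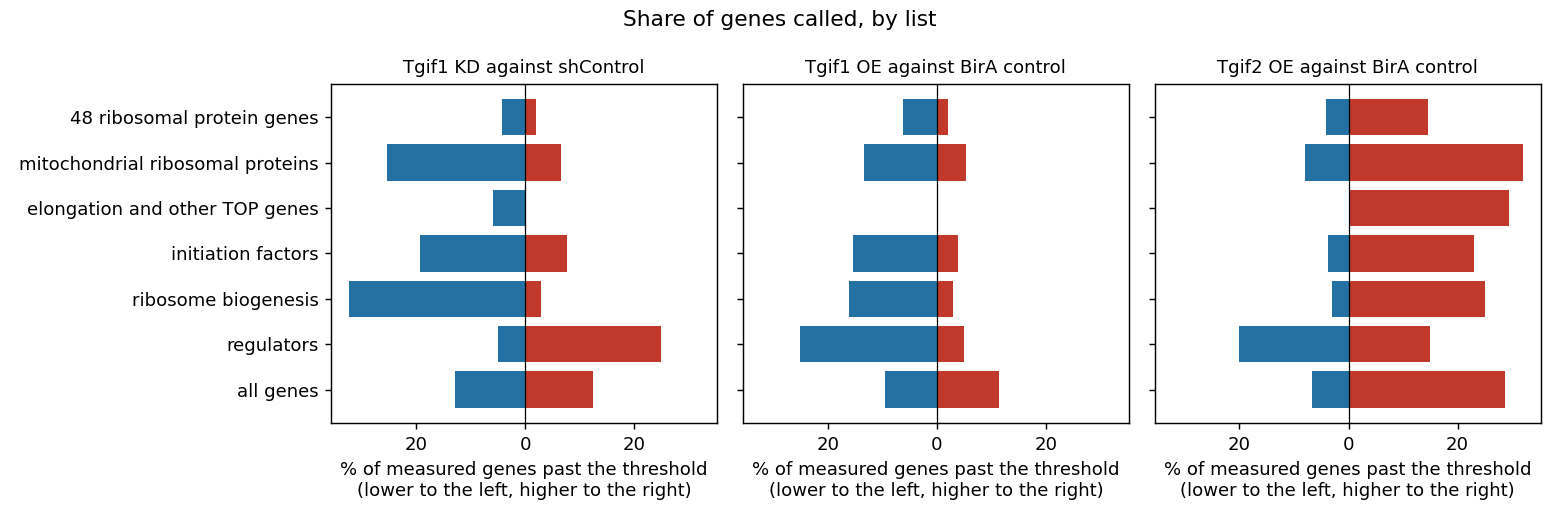
Share of measured genes past an adjusted p of 0.05 (x axis, percent, lower to the left in blue and higher to the right in red) for the 48 ribosomal protein genes, 5 related lists and all genes (y axis), in 3 comparisons. In this fit the ribosomal protein genes have a smaller share called than all genes in each panel. In Tgif2 OE most lists lean to the right as all genes do. With a variance trend, 5 of the 48 were called in Tgif1 KD, against 3253 of all 12393 genes. In Tgif1 OE it was 5 of the 48, against 2658 of all genes. In Tgif2 OE 19 of the 48 were called, so the share of these genes there depends on the variance setting.

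The Tgif1 OE and Tgif2 OE comparisons share the BirA control arrays, so their values are given side by side and not correlated. Set directly against Tgif2 OE, the arrays labelled Tgif1 OE were lower in Rpl39l (-0.50), Rpl22 (-0.19), Rpl39 (-0.28) and Rpl7 (-0.13), which are 4 of the 48 (8.33%), against a background of 19.7% of all genes (2.25% higher, 17.4% lower). After quantile normalization 616 genes of the whole array were higher and 620 lower. The median over all genes was -0.10 and that of the 48 was -0.08. Relative to that shift Rpl39l was lower by 0.40 in Tgif1 OE, and the adjusted p of its difference was 0.0243 in the deposited values. The call of Rpl39l was lost without Tgif1 OE replicate 3 or 4, or Tgif2 OE replicate 1 or 2. Rpl7, at -0.13, stood beside the shift of -0.10 and lost its call when any 1 array of either group was left out. After quantile normalization or centring none of the 48 passed by limma, with 6 and 5 at an unadjusted p under 0.05. The replicate block also called Rpl10a lower (adjusted p = 0.0445).

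Whether the knockdown change differed from the change in the arrays labelled Tgif1 OE was tested as the difference between the 2 log2 changes in the same fit. Of the 48 genes, 4 passed, against 27.6% of all genes (13% higher, 14.6% lower). Rpl39l differed by 1.66 ± 0.25 (SE; adjusted p = 0.0001), being higher in the knockdown and lower in the arrays labelled Tgif1 OE. Rps25 differed by -1.52 ± 0.18 (SE; adjusted p = 2.1e-05), Rpl14 by -0.56 ± 0.14 (SE; adjusted p = 0.0072) and Rpl3l by 0.67 ± 0.23 (SE; adjusted p = 0.0395). The difference of Rpl3l lost its call without 8 of the 12 arrays in turn (adjusted p up to 0.184), while those of Rpl39l, Rps25 and Rpl14 kept theirs without any 1 array. None of the 33 bright genes passed by limma or had an unadjusted p under 0.05 in this test, with differences from -0.08 to 0.13.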

How the data were processed

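The deposited values are log2 signals per probe set made by the authors with RMA, per the submitters' processing notes, which also name limma for the Tgif2 OE arrays; no version is given in those sources. Whether all 16 arrays were normalized together is not stated. Values ran from 2.19 to 14.79. Of 22690 probe sets, 64 were controls, 20380 had 1 gene symbol, 691 several and 1555 none in the platform annotation; no symbol needed updating. Genes on several-symbol probe sets were not named from them alone.

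limma 3.58.1 in R 4.3.3 (lmFit and eBayes on 5 group means) was fitted over 12393 genes with Benjamini-Hochberg adjustment and a threshold of 0.05, and tested on simulated data. The simulated noise was drawn separately for each array, so that test cannot speak to p-values where arrays of a pair deviate together. Array number limits the precision. The genes named are those past the threshold, the subunits and paralogs listed by name, up to 3 per direction of each list, and genes with an outlying array. The genes and lists were chosen with earlier results of these data known. Alternatives were scaling, probe set choice, a dim-gene filter, a variance trend, fewer samples, blocks and leaving out arrays. The variance trend was always fitted together with limma's robust variance. A fit per probe set and a set of other bright genes were added after seeing the data. The same-numbered overexpression and BirA arrays deviated together (r = 0.32 to 0.56 over 12 pairings), so the replicate block is printed where it changes a call. Arrays of other numbers within 1 and 2, or within 3 and 4, correlated as much (r = 0.32 to 0.58), so the number and the array pair cannot be told apart. In the knockdown arm same-numbered arrays did not deviate together (r = -0.0044).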

Additional observations from a re-analysis of the deposited data

Results flagged for a closer look

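For 4 of the 48 genes (8.33%) the change in the Tgif1 knockdown and the change in the arrays labelled Tgif1 OE differed by the test of the difference itself (limma, knockdown change minus overexpression change): Rpl39l by 1.66 (adjusted p = 0.0001), Rps25 by -1.52, Rpl14 by -0.56 and Rpl3l by 0.67. Of all 12393 genes, 27.6% passed the same test. The Tgif1 OE change of Rps25 and the knockdown changes of Rpl14 and Rpl3l did not pass alone. Single arrays stood apart from the other 3 of their group by Dixon's criterion in 4 of 144 groups of 4 arrays, where chance gives about 1 in 20. Rpl10a was 13.90 in BirA control replicate 1, against 13.87 in the others. Rpl22l1 was 13.03 in BirA control replicate 3, against 13.18 to 13.21. Rps20 was 14.10 in Tgif1 OE replicate 1, against 14.20 to 14.22. Rps6 was 9.28 in BirA control replicate 4, against 9.14 to 9.16.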

How the results depend on the processing

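In the knockdown the count of 3 called ribosomal protein genes became 5 with a variance trend and 1 to 2 with 1 array left out, when the count over all genes was 2012 to 2161 in place of 3146. The median change of the 48 genes was -0.012 with arrays centred, -0.011 with the mean of probe sets, and -0.0089 to 0.0037 with 1 array left out. For Tgif1 OE against BirA control the count of 4 became 7 with the array pair as a fixed block, 1 as a random block, 2 in arrays 3 and 4 alone and 2 to 4 with 1 array left out; over all genes 2587 became 4101 and 1191 with the fixed and random block, and the median was -0.048 with arrays centred. For Tgif2 OE the count of 9 became 5 after quantile normalization and 5 with centring, 19 with a trend, 4 with only both groups fitted, 1 with the random block (2081 over all genes) and 4 to 9 with 1 array left out. The median became -0.024 and -0.072 after quantile normalization and centring, and Rps24 and Rps26 turned to -0.0020 and -0.0053 with centring. For Tgif1 OE against Tgif2 OE the count of 4 became 0 under both scalings, 7 without the dimmest genes, 18 with a trend, 15 and 0 with the fixed and random block, 2 in arrays 3 and 4 alone and 2 to 3 with 1 array left out; over all genes 2439 became 1236 and 1156 under both scalings, 3688 with the replicate block, 4444 and 407 with the fixed and random block. The medians were 0.0082 and 0.018 after quantile normalization and centring. For the difference between the knockdown and overexpression changes, with alternatives chosen after seeing the data, the count over all genes fell to 1770 with the random block, in place of 3418, and the median of the 48 genes was 0.032 with arrays centred and 0.0062 to 0.018 with 1 array left out. The replicate block gave 6, 12 and 5 called genes in the 3 overexpression comparisons and 4 in the knockdown, where the numbers do not pair and Rpl14 was added; it removed no call. With the variance trend the count over all genes was 3253 in the knockdown and 2658 for Tgif1 OE against BirA control. A count of the 48 printed without the count over all genes does not show how their share stood to the background. The causes were not tested. Detection calls were not used, and whether dim probe sets such as that of Rpl3l measure their transcript was not tested.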
